A study of Gallus gallus with 14 samples.

Results

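Genes that split glucose to pyruvate and set what becomes of that pyruvate were followed through development of the retinal pigment epithelium (RPE) of the chicken embryo. The set has 9 symbols. HK1, ALDOC, TPI1, GAPDH, PGK1 and ENO1 encode enzymes of glycolysis in the order in which they act, LDHA and LDHB encode the subunits of lactate dehydrogenase, and PDK4 encodes a kinase that controls pyruvate dehydrogenase. A gene was counted as found where a probe set of the array carries its symbol, and no other symbol, in the supplied annotation table. This found 8 of the 9, out of 13009 genes found in the same way over the whole array, and the 8 have 12 probe sets besides 4 GAPDH control probe sets. All 8 passed the filter for dim probe sets, as did 10206 of all genes. PGK1 has no probe set under its own symbol. The table uses the symbol PGK2 for the gene that RefSeq lists with the synonym PGK1, so its values are given as PGK2 and are left out of every count of the set.

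Gene expression was measured on 14 Affymetrix arrays of the chicken genome, 4 from embryonic day 7 (E7), 3 from E10, 3 from E14 and 4 from E18. Each array holds the RNA of a separate preparation, for which RPE sheets of 20 to 30 eyes were pooled. The p-values below therefore measure the spread between pools, and they take the pools of an age as independent. The embryos carried no treatment or mutation that the labels name, and the labels give neither strain nor sex. In a pooled tissue sample, fewer cells that express a gene and less RNA per cell cannot be told apart.

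Hexokinase traps glucose in the cell, and the enzymes that follow turn it into pyruvate. Pyruvate is either reduced to lactate by lactate dehydrogenase or carried into the mitochondrion, where the pyruvate dehydrogenase complex feeds it to the citric acid cycle. In the mature eye the RPE is known to pass glucose from the choroidal blood to the photoreceptors, to take up the lactate they release and to meet much of its own need by oxidation. Lactate dehydrogenase is a tetramer, in which LDHA subunits are typical of tissues that make lactate and LDHB subunits of tissues that oxidise it. PDK4 phosphorylates the pyruvate dehydrogenase complex and thereby slows the entry of pyruvate into the cycle.

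The preparations carried the RNA of pigment epithelium at every age. All 18 RPE marker genes with a probe set were measured, and their summed signal was 361149 to 371992 at E18, against 263809 to 267884 at E7. Among these markers 8 rose and 4 fell at E18 against E7, where 21.6% of all genes were called higher and 26.7% lower. Their median difference was 0.08, beside -0.05 over all genes, so the larger sum does not stand for a general rise. The retinoid isomerase RPE65 had log2 signals of 14.99, 15.06, 15.05 and 14.99 at E18, against 9.70, 8.79, 9.25 and 9.44 at E7. Blood content differed between preparations of 1 age: HBA1, an alpha globin, read 14.88, 9.84, 9.67 and 14.83 at E18 (replicates 1 to 4), against 11.95, 12.01, 8.90 and 7.59 at E7. The 9 arrays deposited with an instrument file have 1 hybridization time in these files, and the fluidics station numbers in them followed age. The other 5 arrays, E7 replicates 1, 2 and 3 and E18 replicates 2 and 3, have no such file, and values within each of these array sets are given beside the results they change. The set with an instrument file holds 1 E7 array and 2 E18 arrays, so in its fit the lone E7 array is assumed to vary like the other ages.

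All values below are log2(intensity + 16) after quantile normalization, called log2 signals, and differences between ages are differences of their means with the standard error (SE) from limma. A gene is said to have risen, fallen or changed where the p-value adjusted over all 23063 tested probe sets was under 0.05. All 8 genes changed over the 4 ages by limma's moderated F test, as did 50.9% of the genes on the array, so this count alone does not set them apart. They did not move together. At E18 against E7, 6 of the 8 were called, 3 higher and 3 lower, where 48.3% of all genes were called (21.6% higher and 26.7% lower). LDHA, LDHB and PDK4 rose, and HK1, ALDOC and ENO1 fell. TPI1 and GAPDH differed by -0.11 ± 0.06 and -0.03 ± 0.05 (SE) and were not called. The median difference of the 8 was -0.07, beside a median of -0.05 over all genes, and it changed sign with the scaling, to 0.05 on the deposited scale and 0.26 after centring each array on its median. Those scalings moved the median of all genes to -0.16 and 0.06. The plot of log2 signals by array shows the 8 profiles.

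**Figure D1:**
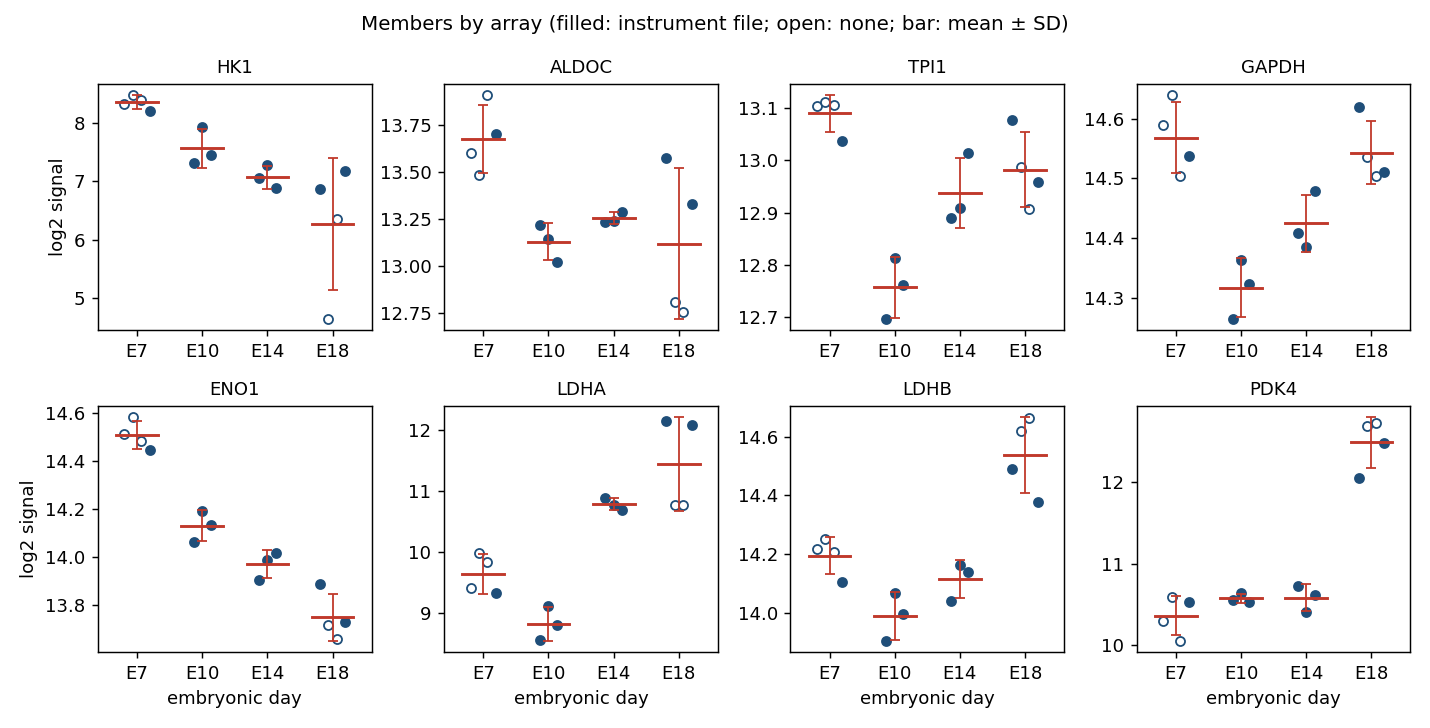
Log2 signal of the 8 genes (y axis, a separate scale per panel) in each array by embryonic day (x axis). Filled points are arrays with an instrument file, open points are arrays without one, and bars give the mean ± SD of 3 or 4 arrays. PDK4 is at most 10.73 up to E14 and at least 12.05 at E18, ENO1 is lower at each later age, and LDHA and ALDOC at E18 lie apart by array set. HK1 at E18 does so too, but by less than the spread of its arrays without an instrument file. LDHB and PDK4 at E18 also divide by array set, with the arrays without an instrument file higher. ENO1 does so only narrowly (13.73 against 13.72 in the nearest arrays).

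The intervals between ages divided the changes. At E10 against E7, 7 of the 8 genes were lower in every E10 array than in every E7 array and 4 were called, all lower (ALDOC, TPI1, GAPDH and ENO1), where 16.9% of all genes were called, 8.78% higher and 8.08% lower. Of all 10206 genes 15.1% had every E10 array below every E7 array. The median of the 8 was -0.36 in this interval, beside -0.01 over all genes. After median centring limma called 0 of the 8 in this interval (1 at an unadjusted p under 0.05), and the 4 differences ran from -0.45 to -0.24. At E14 against E10 LDHA was the 1 gene of the 8 called, and it rose, where 7.45% of all genes were called, 4.65% higher and 2.79% lower. At E18 against E14 LDHB and PDK4 rose and ENO1 fell, 3 of 8 where 24.9% of all genes were called, 9.79% higher and 15.1% lower. The plot of differences by interval sets these values side by side. The comparisons with E7 share the E7 arrays, and neighbouring intervals share the arrays of the age between them.

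**Figure D2:**
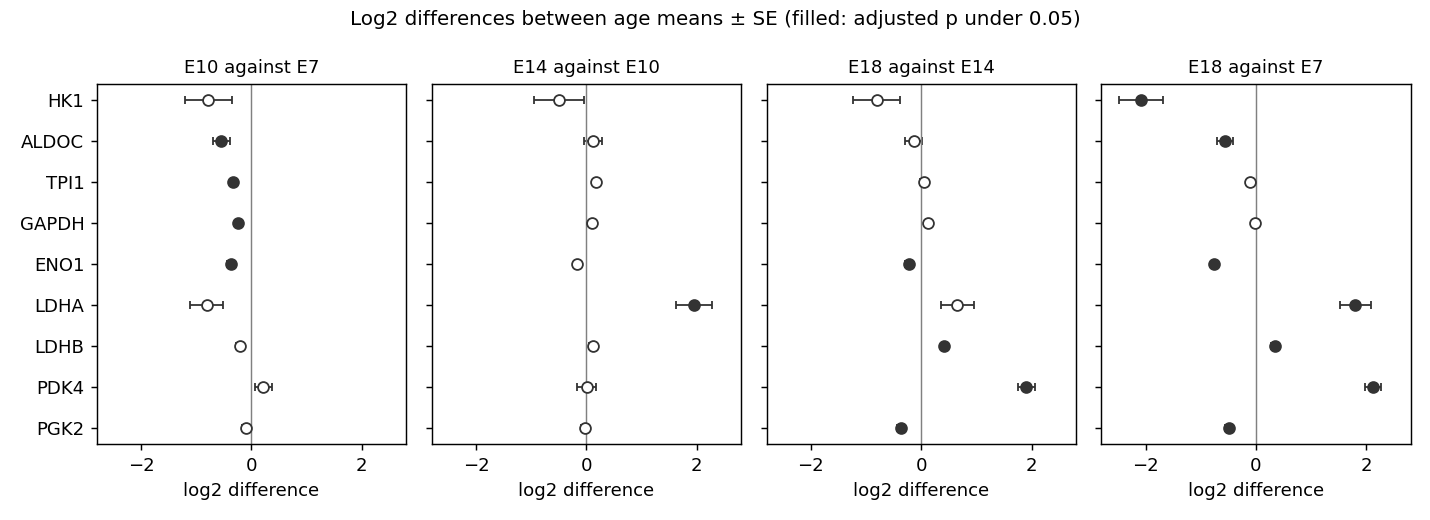
Log2 difference between age means (x axis) with its SE for each gene (y axis) in the 3 intervals and for E18 against E7. Filled points have an adjusted p under 0.05. Calls lie at 4 genes on the left of 0 for E10 against E7, at LDHA alone for E14 against E10, and at 3 genes of the set and PGK2 for E18 against E14.

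HK1 is the hexokinase that starts the pathway in most tissues. It gave log2 signals of 8.32, 8.47, 8.39 and 8.19 at E7 (replicates 1 to 4), 7.31, 7.93 and 7.44 at E10, 7.05, 7.27 and 6.88 at E14, and 6.87, 4.65, 6.36 and 7.17 at E18. Every E18 array lay below every E7 array, and the E18 arrays ran down to the dim end of the scale, where the filter's limit was 6.20. HK1 fell by 2.08 ± 0.40 (SE), or 4.24-fold, at E18 against E7 (adjusted p = 4.8e-04). No single interval was called, with -0.78 ± 0.43 at E10 against E7, -0.49 ± 0.46 at E14 against E10 and -0.81 ± 0.43 at E18 against E14. The size of the fall rests on dim values: it was -1.17 among arrays with an instrument file (adjusted p = 0.026), -2.89 among those without one (adjusted p = 0.0016), -2.51 with a pseudocount of 1 and -1.50 with 64. Both other HK1 probe sets also fell, with differences of -2.33 ± 0.33 and -1.90 ± 0.41 (SE), and in both every E18 array lay below every E7 array. These sets averaged 5.65 and 5.92 at E18, under the filter's limit of 6.20, with 3 and 2 of the 4 E18 arrays below it, against 0 of the 4 E7 arrays in each. Of the first HK1 set 1 of the 4 E18 arrays was below it. With 1 array left out the difference of the first set at E18 against E7 ran from -2.38 to -1.54. The set that averaged 5.65 read 5.26, 5.71, 5.32 and 6.32 in E18 replicates 1 to 4, which did not divide by array set. The set that averaged 5.92 did divide, with 6.54, 4.55, 5.69 and 6.90. All 3 passed the filter through the earlier ages, so the sizes of these differences are uncertain and the further sets add no independent support.

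ALDOC is the aldolase typical of brain. It gave log2 signals of 13.60, 13.49, 13.91 and 13.70 at E7, 13.22, 13.15 and 13.02 at E10, 13.24, 13.24 and 13.29 at E14, and 13.58, 12.81, 12.76 and 13.33 at E18. All E10 arrays lay below all E7 arrays, whereas the E18 arrays overlapped those of E7 through replicate 1. ALDOC fell by 0.56 ± 0.14 (SE) at E18 against E7 (adjusted p = 0.0055) and by 0.55 ± 0.16 at E10 against E7 (adjusted p = 0.030). The E18 difference was -0.88 and called among arrays without an instrument file. The call was lost among arrays with one (-0.25), on the deposited scale (-0.31) and after median centring (-0.09). At E18 replicates 1 and 4, with such a file, also had the high HBA1 signals (14.88 and 14.83, against 9.84 and 9.67). Array set and blood content therefore cannot be told apart at E18, for ALDOC or for HK1. The E10 call was lost without E7 replicate 3 (-0.47) or 4 (-0.54), and without E10 replicate 1 (-0.59), 2 (-0.55) or 3 (-0.49).

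TPI1, triose phosphate isomerase, and GAPDH, the dehydrogenase of the next step, both had their low point at E10. TPI1 had log2 signals of 13.10, 13.11, 13.11 and 13.04 at E7, 12.70, 12.81 and 12.76 at E10, 12.89, 12.91 and 13.01 at E14, and 13.08, 12.99, 12.91 and 12.96 at E18. GAPDH had 14.59, 14.64, 14.50 and 14.54 at E7, 14.27, 14.36 and 14.32 at E10, 14.41, 14.39 and 14.48 at E14, and 14.62, 14.54, 14.50 and 14.51 at E18. In both genes every E10 array lay below every array of the other 3 ages. TPI1 fell by 0.33 ± 0.06 (SE) at E10 against E7 (adjusted p = 0.0014) and GAPDH by 0.25 ± 0.05 (adjusted p = 0.0032), and neither was called in the later intervals. After median centring neither E10 call held, and the differences of both at E18 against E7 were above 0 (0.35 for TPI1 and 0.18 for GAPDH), still without a call. GAPDH is often taken as a constant reference for RNA amounts. On the deposited scale all 6 of its probe sets, controls included, had their lowest mean at E10, at 0.725 to 0.879 of the E7 mean, and in 2 of the 6 every E10 array lay below every E7 array. At E18 the same 6 means were 0.911 to 1.01 of those at E7.

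ENO1, the enolase that makes phosphoenolpyruvate, had lower log2 signals at each later age. It gave log2 signals of 14.52, 14.58, 14.48 and 14.45 at E7, 14.06, 14.19 and 14.13 at E10, 13.90, 13.99 and 14.02 at E14, and 13.89, 13.72, 13.66 and 13.73 at E18. The log2 signals of the 4 ages did not overlap. The deposited intensities of the last 3 ages did, with 15112 to 19944 at E10, 15338 to 17295 at E14 and 14001 to 16512 at E18. ENO1 fell by 0.76 ± 0.06 (SE), or 1.69-fold, at E18 against E7 (adjusted p = 1.8e-08), by 0.38 ± 0.06 at E10 against E7 (adjusted p = 5.4e-04) and by 0.22 ± 0.06 at E18 against E14 (adjusted p = 0.016). At E14 against E10 the difference was -0.16 ± 0.07 and was not called. Over the other settings run it ranged from -0.51 to 0.14, so the direction of this step depends on the processing. After median centring the E18 against E7 difference was -0.46 and not called (adjusted p = 0.069). The call at E18 against E14 was lost on the deposited scale (-0.12), after median centring (-0.18), among arrays with an instrument file (-0.16), with no variance trend (-0.22) and with the second probe set (-0.20). It was also lost without E7 replicates 1 and 2 and E18 replicates 2 and 3 (-0.16), and without E14 replicate 2 (-0.21) or 3 (-0.20) and without E18 replicate 3 (-0.19). A second ENO1 probe set also fell, by 1.34 ± 0.09 at E18 against E7, 2.53-fold, and its log2 signals did not overlap between ages either. Its largest single steps were -0.63 at E10 against E7 and -0.51 at E14 against E10, both called. The 2 ENO1 probe sets therefore gave 1 direction and different sizes, as the plot of probe sets by age shows.

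PGK2, the table's symbol for phosphoglycerate kinase, acts 2 steps before enolase. It gave log2 signals of 12.51, 12.58, 12.64 and 12.51 at E7, 12.38, 12.54 and 12.44 at E10, 12.37, 12.42 and 12.50 at E14, and 12.09, 12.06, 12.06 and 12.05 at E18. The 4 E18 arrays lay close together and below every array of the other ages. It fell by 0.50 ± 0.06 (SE) at E18 against E7 (adjusted p = 3.9e-06) and by 0.37 ± 0.06 at E18 against E14 (adjusted p = 5.7e-04). After median centring the E18 against E7 difference was -0.11 and not called.

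**Figure D3:**
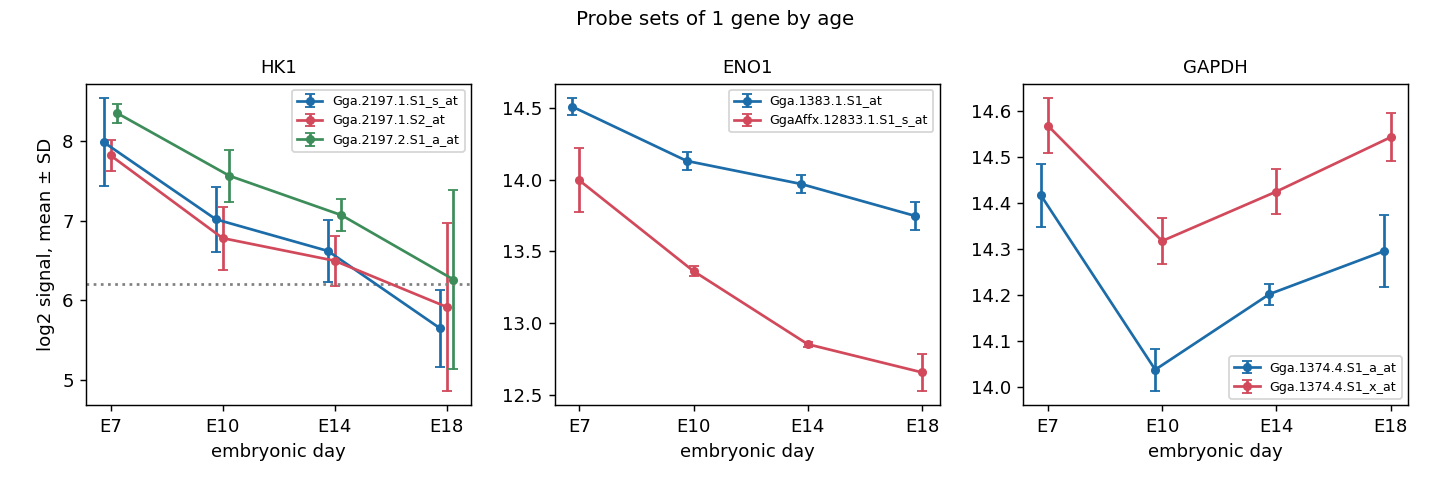
Mean log2 signal ± SD (y axis, a separate scale per panel) at each embryonic day (x axis) for the tested probe sets of HK1, ENO1 and GAPDH, 4 arrays at E7 and E18 and 3 at E10 and E14. The dotted line in the HK1 panel is the filter's limit of 6.20. All 3 HK1 and both ENO1 probe sets are lowest at E18, and both GAPDH probe sets are lowest at E10.

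The lactate dehydrogenase genes rose at different times. LDHA had log2 signals of 9.42, 9.99, 9.83 and 9.33 at E7, 8.56, 9.12 and 8.81 at E10, 10.89, 10.77 and 10.69 at E14, and 12.14, 10.78, 10.77 and 12.08 at E18. All arrays of E14 and E18 lay above all arrays of E7 and E10, and the E10 arrays were the lowest. LDHA rose by 1.95 ± 0.32 (SE), or 3.88-fold, at E14 against E10 (adjusted p = 0.0016), a difference larger in size than that of 99.5% of genes. Globin moved with it in this interval: HBA1 read 13.14, 13.13 and 13.06 at E14, against 8.19, 8.48 and 8.77 at E10, and the 5 globin genes summed to 12186 to 12585 at E14, against 704 to 1093 at E10. At E18 against E7 it rose by 1.80 ± 0.28, or 3.48-fold (adjusted p = 6.7e-05). At E10 against E7 the difference was -0.81 ± 0.30 (adjusted p = 0.096), without overlap between the arrays and without a call.

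At E18 LDHA split into pairs. Replicates 1 and 4, with an instrument file, averaged 12.11, and replicates 2 and 3, without one, averaged 10.77, near the 10.78 ± 0.10 (SD, n = 3) of E14. The same replicates 1 and 4 held the high globin signals. The p-values take the 4 E18 arrays as independent, and these pairs put that in doubt. The 5 globin genes summed to 45681, 1684, 1380 and 46700 in E18 replicates 1 to 4, against 7740, 8230, 1411 and 1192 in the E7 replicates. Of the 17 erythrocyte markers listed, 12 had a probe set and 9 were measured, with a summed signal of 37666 to 94766 at E18, against 40458 to 46982 at E7, and 3 rose and 4 fell although the median difference was 1.52. SLC4A1, EPB42 and RHAG, which are known from red cell membranes, were the 3 left out as dim. At E7 and in E18 replicates 2 and 3 most of the summed marker signal came from listed genes other than the globins. ALAS1, CA2 and CA13 are among these genes, so the summed marker signal and its calls do not measure globin alone. ALAS1 entered the list as the table's symbol for the listed ALAS2. With the HBA1 signal of each array as a covariate LDHA rose by 1.39 at E18 against E7 and by 1.08 at E14 against E10 (adjusted p = 0.044). Within E18 the HBA1 signal divided by array set as LDHA did, so this covariate cannot separate blood content from array set. The part of blood in the LDHA signal was not tested. The rise at E18 against E7 was 2.78 among arrays with an instrument file and 1.03 among those without one, both called. At E18 against E14 the LDHA difference was 0.66 ± 0.30 and was not called, and it was 1.32 and called when only arrays with an instrument file were used (adjusted p = 2.5e-05).

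LDHB was higher at E18 than at any other age. Its log2 signals were 14.22, 14.25, 14.21 and 14.11 at E7, 13.90 to 14.07 in the 3 E10 arrays, 14.04, 14.16 and 14.14 at E14, and 14.49, 14.62, 14.66 and 14.38 at E18. Every E18 array lay above every array of the other ages. LDHB rose by 0.34 ± 0.06 (SE), or 1.27-fold, at E18 against E7 (adjusted p = 3.7e-04) and by 0.42 ± 0.07 at E18 against E14 (adjusted p = 3.2e-04). The E18 against E14 call was lost after median centring (0.39, adjusted p = 0.25). Within E18 the pairs of arrays stood the other way round from LDHA, with 14.43 on average in replicates 1 and 4 and 14.64 in replicates 2 and 3.

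A factor common to a whole array largely cancels in the difference LDHA minus LDHB within that array. As each probe set has its own brightness, only its shift between ages can be read. The difference was -2.35, -3.84, -3.89 and -2.30 at E18, against -4.80, -4.26, -4.37 and -4.78 at E7. Every E18 array lay above every E7 array, and the shift of the mean was 1.46 (exact 2-sided permutation test, p = 0.0286, the smallest that 4 against 4 arrays allow, and 0.0286 after adjustment over the 2 within-array differences tested). The test takes the 4 E18 arrays as independent, although their values fell into pairs. E10 averaged -5.16 ± 0.20 (SD, n = 3) and E14 averaged -3.33 ± 0.16 (SD, n = 3). The shift at E18 against E7 was 2.46 among arrays with an instrument file and 0.61 among those without one.

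**Figure D4:**
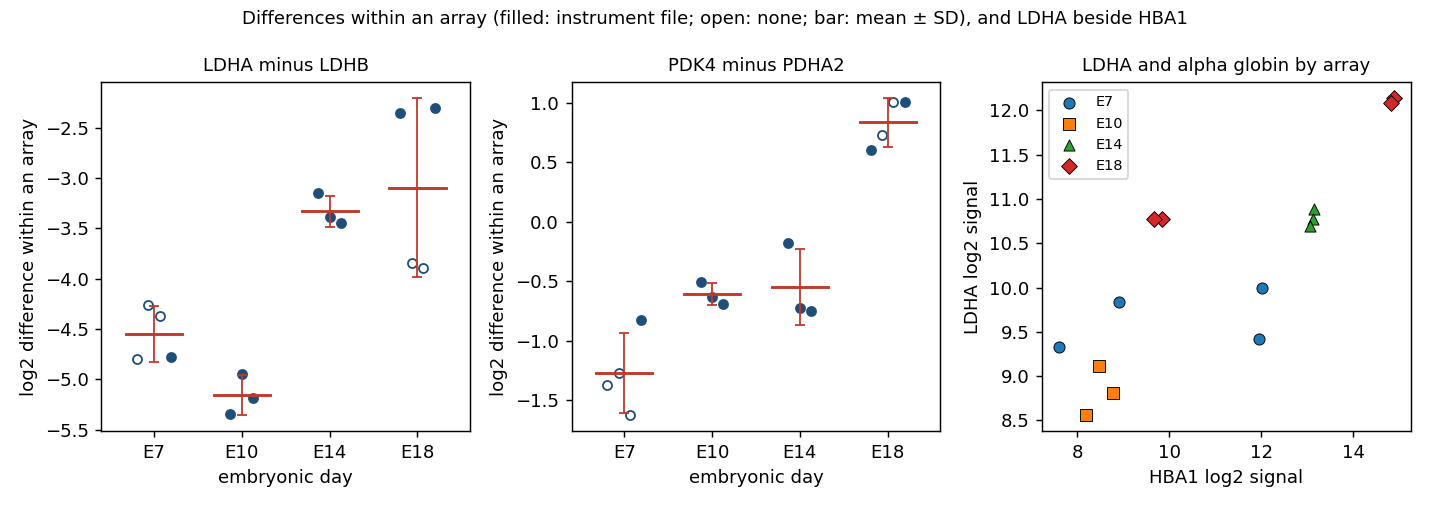
Log2 difference LDHA minus LDHB (left) and PDK4 minus PDHA2 (middle) in each array by embryonic day, with the mean ± SD of 3 or 4 arrays, filled where an instrument file exists and open where none does, and LDHA against HBA1 log2 signal in each array (right). Every E18 array is above every E7 array in the left and middle panels. In the right panel 2 E18 arrays stand at HBA1 signals over 14 with the highest LDHA, and the 2 others sit beside the level of the E14 arrays on the LDHA axis.

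PDK4 showed a late rise. Its log2 signals were 10.30, 10.59, 10.05 and 10.53 at E7, 10.56, 10.64 and 10.54 at E10, 10.73, 10.41 and 10.62 at E14, and 12.05, 12.70, 12.73 and 12.48 at E18. The arrays of the first 3 ages overlapped, and every E18 array lay above all of them. PDK4 rose by 1.90 ± 0.16 (SE), or 3.74-fold, at E18 against E14 (adjusted p = 3.7e-07) and by 2.12 ± 0.14, or 4.36-fold, at E18 against E7 (adjusted p = 6.6e-09). The change at E18 against E14 was larger in size than that of 98.6% of genes. At E10 against E7 the difference was 0.21 ± 0.16, and at E14 against E10 it was 0.01 ± 0.17. Among arrays with an instrument file the rise at E18 against E7 was 1.74, and among those without one it was 2.40, both called.

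The kinase was also set against its substrate. The table's PDHA2 is the gene that RefSeq lists with the synonym PDHA1, the E1 alpha subunit that PDK4 phosphorylates. PDHA2 read 11.45, 11.97, 11.73 and 11.47 at E18, against 11.66, 11.86, 11.68 and 11.35 at E7, which overlap, and it differed by 0.01 ± 0.13. A second PDHA2 probe set differed by 0.36 ± 0.20 and was not called. At E18 against E14 PDHA2 rose by 0.52 ± 0.14. PDK4 minus PDHA2 within an array averaged 0.84 ± 0.20 at E18, against -1.27 ± 0.34 at E7 (SD, n = 4 each), without overlap. The shift was 2.11 (exact 2-sided permutation test, p = 0.0286, the smallest possible here), and it was 1.63 among arrays with an instrument file. E10 averaged -0.61 ± 0.09 and E14 averaged -0.55 ± 0.32 (SD, n = 3 each).

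Most calls among the other glycolytic enzymes were falls. Of 16 other glycolytic genes with a probe set, PGK2 among them, 14 were measured, and at E18 against E7 8 fell and 1 rose, with a median of -0.37 beside -0.05 over all genes. For this list and those below, 21.6% of all genes were called higher and 26.7% lower at E18 against E7. HKDC1, a hexokinase-like enzyme known from mammals, fell by 1.51 ± 0.15 (SE), PFKFB3, which makes the activator of phosphofructokinase, by 0.82 ± 0.21, PKLR by 0.77 ± 0.10 and GPI, the isomerase after hexokinase, by 0.56 ± 0.07. Among arrays with an instrument file PFKFB3 differed by -0.49 and was not called. PKLR is the table's symbol for the gene listed as PKM, the pyruvate kinase of the last step. The platelet-type phosphofructokinase PFKP fell by 0.36 ± 0.11, mostly through arrays without an instrument file. Those arrays read 10.37, 10.15 and 10.37 at E7, against 9.82 and 9.68 at E18. The arrays with such a file read 10.10 at E7, against 10.03 and 10.04 at E18. The liver-type PFKL was the gene that rose, by 1.02 ± 0.13. The mutase PGAM1 repeated the low point of TPI1 and GAPDH, falling by 0.31 ± 0.06 at E10 against E7 and rising by 0.28 ± 0.06 at E14 against E10. HK2, with arrays from 5.10 to 8.05, differed by 0.34 ± 0.54 at E18 against E7. After median centring 2 of the 14 fell, HKDC1 and PFKFB3, and 1 rose, with a median of -0.13, so the count of falls in this list depends on the scaling.

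Most calls among carriers of glucose, lactate and pyruvate were rises. Of 14 with a probe set 12 were measured, 8 rose, 1 fell and 3 were not called at E18 against E7, with a median of 0.42 beside -0.05 over all genes, and the counts were 8 and 1 after median centring and 8 and 2 on the deposited scale. SLC2A1, the main glucose transporter of the RPE, had log2 signals of 14.78, 14.82, 14.81 and 14.87 at E18, against 14.30, 14.22, 14.21 and 14.26 at E7, and rose by 0.57 ± 0.05 (SE). The lactate transporter SLC16A1 had 14.76, 14.77, 14.78 and 14.80 at E18, against 14.34, 14.27, 14.34 and 14.36 at E7, and rose by 0.45 ± 0.04. Neither gene's arrays overlapped between these ages. SLC16A8, the lactate transporter of the basal RPE membrane, rose by 0.40 ± 0.05, and BSG, the chaperone of these transporters, by 0.58 ± 0.09. SLC16A3, known from lactate-exporting cells, fell by 0.56 ± 0.13. MPC2 and MPC1L, the table's symbols for subunits of the mitochondrial pyruvate carrier, rose by 0.92 ± 0.08 and by 0.54 ± 0.10. SLC2A12 rose by 1.25 ± 0.13 at E10 against E7, the largest step of the list.

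Pyruvate dehydrogenase and its kinases did not follow PDK4 as a group. Of 12 measured genes of the complex and its control 2 rose and 1 fell at E18 against E7, with a median of 0.17. PDK3 rose by 0.79 ± 0.06 and the binding protein PDHX by 0.34 ± 0.13, and PDHB, the E1 beta subunit, differed by 0.18 ± 0.09. PDK1, a kinase of the same family, rose by 0.66 ± 0.08 at E10 against E7 and fell by 1.07 ± 0.08 at E18 against E14, the interval in which PDK4 rose. Its log2 signals were 12.77, 12.65, 12.64 and 12.92 at E18, against 13.77, 13.82 and 13.86 at E14. The PDK1 fall of 0.36 at E18 against E7 was not called on the deposited scale (-0.12) and was 0.09 after median centring. The plot of pathway genes shows these 3 lists.

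**Figure D5:**
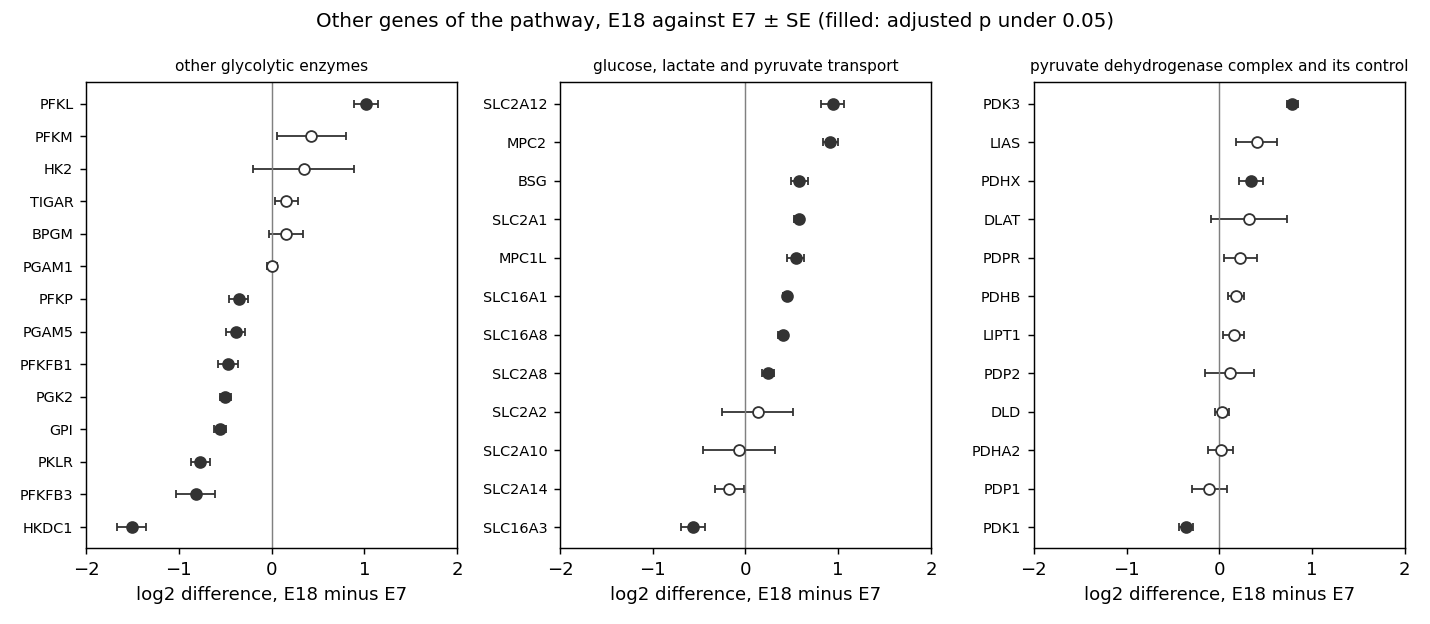
Log2 difference between E18 and E7 (x axis) with its SE for the measured genes (y axis) of 3 lists: other glycolytic enzymes, carriers of glucose, lactate and pyruvate, and the pyruvate dehydrogenase complex with its control. Filled points have an adjusted p under 0.05. In the left panel 8 filled points lie below 0 and 1 above, in the middle panel 1 below and 8 above, and in the right panel 1 below and 2 above.

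Beyond pyruvate, most calls were rises. Of 18 measured genes of the citric acid cycle 7 rose and 2 fell at E18 against E7 (median 0.17), with SDHD at 0.81 ± 0.07, the malate dehydrogenase MDH2 at 0.65 ± 0.09, IDH1 at 0.48 ± 0.06 and ACO1 at 0.47 ± 0.06. As a share, the calls in this list were near the 48.3% of all genes (21.6% higher and 26.7% lower). Of 13 genes of fatty acid oxidation, the fuel use that PDK4 is known to favour, 9 rose and 1 fell (median 0.39). HADHB, a subunit of the trifunctional protein, read 13.33, 13.33, 13.32 and 13.56 at E18, against 11.73, 11.80, 11.73 and 11.73 at E7. It rose by 1.64 ± 0.07 at E18 against E7 and by 1.11 ± 0.07 at E18 against E14. The thiolase ACAA2 rose by 1.28 ± 0.09, the carnitine palmitoyltransferase CPT2 by 0.84 ± 0.08 and the carnitine carrier SLC25A20 by 0.45 ± 0.05. Among arrays without an instrument file 5 of the 13 rose and 1 fell, and among those with one 10 rose and 2 fell.

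Side branches of glycolysis moved in both directions. Of 16 genes of gluconeogenesis and glycogen 6 rose and 2 fell (median 0.24), a share of calls near the 48.3% of all genes. The phosphoglucomutase PGM1 rose by 1.24 ± 0.10, the phosphorylase kinase subunit PHKG1 by 0.70 ± 0.12, G6PC2 by 0.58 ± 0.09 and UGP2, which makes UDP-glucose, by 0.51 ± 0.07, and the glycogen phosphorylase PYGL fell by 1.14 ± 0.12. Of 7 genes of the pentose phosphate pathway 4 rose and 1 fell (median 0.26). The transketolase-like TKTL1 fell by 1.36 ± 0.09, whereas RBKS, RPIA and PGD rose by 0.80 ± 0.20, 0.67 ± 0.13 and 0.26 ± 0.06. PRPS2 rose by 1.13 ± 0.36, and its difference was 2.60 among arrays with an instrument file and 0.43 among those without one. Among the arrays without one 1 of the 7 pentose phosphate genes rose and 1 fell.

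Regulators of fuel use and oxygen response were evenly divided. Of 20 measured 4 rose and 4 fell at E18 against E7 (median -0.05), where 48.3% of all genes were called. HIF1A, the oxygen-regulated activator of many glycolytic genes, differed by -0.11 ± 0.10 at E18 against E7 and fell by 0.42 ± 0.11 at E18 against E14. HIF1A signals were 10.86, 10.49, 10.46 and 10.85 in E18 replicates 1 to 4, against 11.12, 11.03 and 11.10 at E14. The E18 arrays with an instrument file, replicates 1 and 4, therefore lay nearer to the E14 arrays, which all have one. Its partner ARNT fell by 1.13 ± 0.14, and the growth regulator MYCN fell by 2.45 ± 0.12. The forkhead factors FOXO1 and FOXO3 rose by 1.78 ± 0.13 and by 1.23 ± 0.12. FOXO1 signals were 7.94, 7.94, 7.70 and 7.46 at E7, 9.34, 9.61 and 9.71 at E10, 10.57, 10.56 and 10.55 at E14, and 9.39, 9.58, 9.68 and 9.51 at E18. FOXO1 was highest at E14 and fell by 1.02 ± 0.14 at E18 against E14. At E18 against E14 9.79% of all genes were called higher and 15.1% lower. Of the 20 regulators 1 rose in that interval and 6 fell (median -0.17, beside -0.07 over all genes). The gene that rose was the nuclear receptor PPARA, by 0.81 ± 0.14, and it is named here after its values were seen.

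Genes that low oxygen is known to induce outside glycolysis did not move 1 way either. Of 16 measured 6 rose and 5 fell at E18 against E7 (median 0.29). The vasodilator peptide ADM rose by 1.55 ± 0.13, BNIP3 by 0.98 ± 0.08 and the vascular growth factor VEGFA by 0.92 ± 0.11, and the histone demethylase KDM3A fell by 0.88 ± 0.08. HMOX1, the haem-degrading enzyme, rose by 3.17 ± 0.28 at E14 against E10. Its E18 signals were 10.28, 9.16, 9.28 and 10.30 in replicates 1 to 4, so replicates 1 and 4 were high as they were for LDHA.

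Markers of other cells moved with age too. Of 18 photoreceptor markers with a probe set 9 were measured, 4 rose and none fell at E18 against E7, and their summed signal was 2128 to 2816 at E18, against 738 to 1103 at E7. Of 10 measured markers of other retinal neurons and glia 1 rose and 3 fell, with sums of 10717 to 18385 at E18, against 14609 to 19183 at E7. Of 10 of stroma and muscle 4 rose and 2 fell (median 0.66), although the sums were lower, with 3079 to 3911 at E18, against 4047 to 4369 at E7. Of 9 of endothelium and leukocytes 4 rose and none fell, with 9137 to 10619 at E18, against 4654 to 5717 at E7. The part of these cells in the changes above was not tested. Measures of labelling differed as well, and 1 moved with age. The ratio of 3′ to 5′ EEF1A1 signal was 1.54 ± 0.0577 at E18, against 1.35 ± 0.0157 at E7 (SD, n = 4 each). That of GAPDH ran from 0.948 to 1.11 over all arrays. That of ACTB ran from 1.18 to 1.73 and divided by array set within E18 and within E7. It read 1.56, 1.23, 1.18 and 1.47 in E18 replicates 1 to 4, so replicates 1 and 4 were high as for LDHA. At E7 it was 1.495 in replicate 4, with an instrument file, and 1.25 to 1.37 in replicates 1 to 3. The part of these ratios in the changes was not tested.

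Genes with the most similar profiles are given for LDHA, LDHB, ENO1 and PDK4, by Pearson's r over the 14 arrays. These points share the 4 ages, the array sets and the scaling, so r is given only as a description. For LDHA they were LRRC8D (0.961), ZPLD1 (0.960) and MRPL14 (0.958). For LDHB they were GPR137B (0.965), TIMM17B (0.964) and FAM81A (0.963). For ENO1 they were EIF3G (0.988), MRPS10 (0.986) and CFC1 (0.985), and for PDK4 they were NTL (0.982), ACTB (0.978) and GCH1 (0.976).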

How the data were processed

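The series matrix holds 1 linear intensity per probe set and array, as the authors deposited it. Per the values, each array has a mean of about 500.1 after trimming 2% at each end. The summarising software and genome build are not given in the sources used here. The 9 deposited instrument files hold settings (unit other) and served only to tell array sets apart. After 96 control probe sets were left out, log2(intensity + 16) was quantile-normalized, because array medians ran from 83.3 to 145. The dimmest 40% of probe sets by mean were left out, which left 23063 of 38439. The table gave 1 symbol to 27168 probe sets, several to 177 and none to 11094. A gene was represented by its brightest tested probe set.

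All 14 arrays were fitted with limma 3.58.1 in R 4.3.3 (lmFit, eBayes with a trend, Benjamini-Hochberg over all tested probe sets). The fit was also run on simulated data with independent noise and changes put into brighter probe sets. That run held no array sets, no differences in blood and no dim changed probe sets, so it does not cover these. Within-array differences were compared by exact permutation tests. Figures were drawn with matplotlib 3.10.9.

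The members and the 15 lists were chosen with earlier results of these data known. The lists are other glycolytic enzymes, transport, pyruvate dehydrogenase control, citric acid cycle, gluconeogenesis and glycogen, pentose phosphate pathway, regulators, hypoxia-induced genes, fatty acid oxidation, and markers of pigment epithelium, erythrocytes, photoreceptors, other retinal cells, stroma and muscle, and endothelium and leukocytes. Named were all members, up to 4 called genes per list with the smallest adjusted p for E18 against E7, the gene of each list with the largest interval change, a fixed set (HK2, GPI, PFKP, PGAM1, SLC2A1, SLC16A genes, BSG, PDK1, PDK3, PDHB, HIF1A, VEGFA, RPE65, HBA1) and the 3 genes most like LDHA, LDHB, ENO1 and PDK4. Lists are described by counts and medians, and of the marker lists' genes only a few are named. PPARA, MPC1L and the dim erythrocyte markers were named after their values were seen. Alternatives covered the filter, scaling, pseudocount, variance model, samples in the fit, replicate number, array sets, HBA1 signal, probe set choice and each array left out. The number of arrays limits precision.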

Additional observations from a re-analysis of the deposited data

Results flagged for a closer look

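One array stood apart within its age. E7 replicate 4 had a TPI1 log2 signal of 13.0368, against 13.10 to 13.11 in the other 3 E7 arrays, and its gap to the nearest of them was 0.902 of the range of the 4. Of 28 sets of 4 arrays looked at, 1 stood apart in this way, and chance gives about 1 in 20 (Dixon's 95% critical value).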

How the results depend on the processing

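Over the settings fixed for the 8 genes, 477 of 520 gene-level results kept their side of the threshold, 20 lost a call, 23 gained one and none reversed a call. With 1 array left out 436 of 448 kept their side, with 8 calls lost and 4 gained. Differences not called in either fit were counted as kept even where their sign changed, as for TPI1 and GAPDH at E18 against E7 after median centring. PDK4, LDHA, LDHB and HK1 at E18 against E7, LDHA at E14 against E10 and PDK4 at E18 against E14 were called under every setting run. With each array centred on its median 4 of the 8 genes changed over the 4 ages, 0 were called at E10 against E7 (1 at an unadjusted p under 0.05 in limma) and 1 at E18 against E14. With no trend 2 were called at E10 against E7, and with only the ages compared 7. At E14 against E10 the counts were 3 with array weights, 3 with only the ages compared, and 2 each with only arrays with an instrument file, without E7 replicates 1 and 2 and E18 replicates 2 and 3, with the mean of a gene's probe sets and with its second probe set. Array weights gave 5 at E18 against E14. Leaving out 1 array at a time gave 7 to 8 called over the 4 ages, 6 to 6 at E18 against E7, 3 to 5 at E10 against E7, 1 to 1 at E14 against E10 and 2 to 3 at E18 against E14. LDHA minus LDHB shifted by 2.46 in arrays with an instrument file, 0.61 in those without one and 2.25 without E7 replicates 1 and 2 and E18 replicates 2 and 3, and by 1.19 to 1.72 with 1 array left out (exact permutation p = 0.0857 without any 1 of the E7 arrays). The shift of 2.25 set E7 arrays of low HBA1 signal (8.90 and 7.59) against E18 arrays of high HBA1 signal (14.88 and 14.83). PDK4 minus PDHA2 shifted by 1.63 in arrays with an instrument file and by 1.99 to 2.26 with 1 array left out. The cause of these shifts was not tested. The replicate numbers did not pair the arrays: deviations of same-numbered arrays correlated at -0.23 to 0.15 over 19 pairs, 2 of them above 0.1. With the replicate number as a block the counts stayed at 8, 6, 4, 1 and 3 in the order above, ALDOC at E10 against E7 was -0.51 (adjusted p = 0.0504) and LDHB in that interval -0.25 (adjusted p = 0.0076). Dim signals limit HK1, and 3 or 4 arrays an age limit every test.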
